A study of Eurytemora affinis with 18 samples.

Results

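Adult females were compared with adult males of Eurytemora affinis, a calanoid copepod of estuaries, after 72 h in water with a nominal 0.5 µg/L of tebufenozide (TEB). The members of this comparison were the 3 female and the 3 male libraries labelled with that dose, 6 of the 18 libraries of the series. By the study's description, every library came from a pool of 30 whole adults sorted by sex, and the females that were pooled carried no eggs. The other 12 libraries, used here only beside these 6, came from females and males kept without TEB and from females and males at a nominal 50 µg/L, again with 3 libraries per group. All groups were wild-caught copepods of the Seine estuary kept at 15 °C and 15 psu, and the water of all groups, the controls included, held the solvent acetone. In the study's water assay, TEB was below the quantification limit of 0.4 µg/L in the controls and at nominal 0.5 µg/L, at the start and at the end. At nominal 50 µg/L it was above that limit but below the nominal value. No source states whether each pool came from its own exposure vessel, so p-values measure the spread between pools, part of which may be technical. RNA was taken from entire animals, in which fewer cells of a type and less RNA per cell cannot be told apart.

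In arthropods, gonads account for much of the RNA that differs between the sexes. An ovary loads oocytes with yolk protein made from vitellogenin, with stored maternal mRNA and with the proteins needed for the first rounds of DNA replication, whereas a testis transcribes many genes used in sperm alone. TEB is an insecticide that activates the receptor of ecdysone, the steroid hormone that times moulting and also acts on egg production. Adult copepods no longer moult, so that the ecdysone pathway in these animals belongs to adult tissues.

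The summed counts on genes were 16139881, 14539358 and 10225441 in female replicates 1, 2 and 3 and 6945417, 8114451 and 8660828 in male replicates 1, 2 and 3, and between 19044 and 20179 of the 23728 genes had a count in a library. The flow cell of female replicate 3 was a Mid Output one with reads of 150 bp, and that of the other 5 libraries a High Output one with reads of 75 bp. In that library 48 of the 8587 genes with a female mean of at least 10 CPM (the count of a gene relative to the library total) lay at least 2-fold below both other female libraries, against 1 and 0 such genes in female replicates 1 and 2. Gene levels below are CPM after scaling by the trimmed mean of M-values (TMM), in the order of replicates 1, 2 and 3, and are not corrected for gene length.

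The sex labels were checked with genes chosen on the 50 µg/L libraries alone, with log2 fold changes no smaller than 5 and a mean of at least 10 CPM in the higher sex. The 232 genes high in females there had a median level of 98.4, 100 and 100% of the female mean in female replicates 1, 2 and 3 at 0.5 µg/L. In the males the median was 0.468% in replicate 1 but 26.0% in replicate 2 and 25.8% in replicate 3, and 64, 1 and 0 of the 232 genes were without a count in these libraries. The 576 genes high in males there had medians of 0.172, 0.0419 and 0.0218% of the male mean in female replicates 1, 2 and 3, beside 135, 81.9 and 81.1% in male replicates 1, 2 and 3. All 6 libraries thus lay on the side of their label, and male replicates 2 and 3 held RNA of female-high genes that male replicate 1 nearly lacked. Whether female animals or female material entered these male pools was not tested, and female-high fold changes and missed calls over all 3 male libraries rest on them. Over the same 232 genes, male replicates 1, 2 and 3 of the controls had medians of 0.251, 37.1 and 45.8% of the female control mean. In male replicate 1, 905 of 10493 genes with a male mean of at least 10 CPM lay at least 2-fold below both other male libraries, and 891 of the 905 had a higher mean in females than in males. The results that rest on these libraries are therefore also given against male replicate 1 alone, a fit that was chosen after the data were examined and in which that lone library is assumed to vary like the females.

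**Figure D1:**
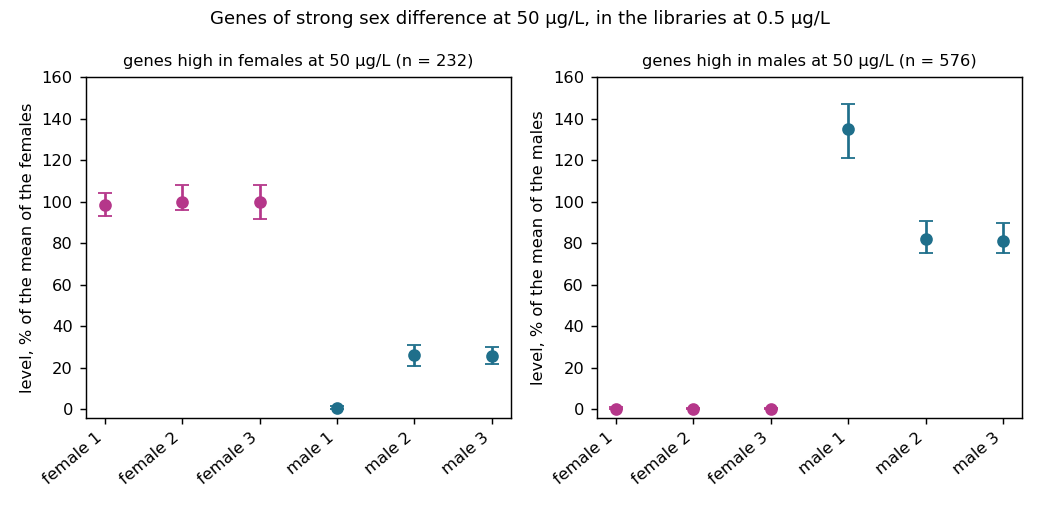
Median level (points) and quartiles (bars) of genes that differed strongly by sex at 50 µg/L, in each library at 0.5 µg/L, as a percentage of the mean of the females (left, 232 genes) or of the males (right, 576 genes). Male replicates 2 and 3 lie at 26.0 and 25.8% for the female-high genes and male replicate 1 at 0.468%, whereas no female library exceeds 0.172% for the male-high genes.

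Most genes differed between the sexes. Of 16401 genes tested, 10328 (63%) were called, that is, they differed at least 2-fold with a Benjamini-Hochberg adjusted p no higher than 0.05 in edgeR's quasi-likelihood test. Of these, 3580 (21.8% of the genes tested) were higher in females and 6748 (41.1%) were higher in males. Another 2660 genes passed the adjusted p at a fold change under 2. The median log2 fold change of females over males was -0.24 over all genes tested, and the balance of calls moved with the scaling, with more genes higher in males under each. With upper quartile factors the median moved to -0.57 and the calls to 2053 higher in females and 7269 higher in males, and with library size alone the median was 0.03 and the calls were 4868 and 6344. Against male replicate 1 alone, 5515 genes were called higher in females and 6808 higher in males.

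Differences were larger on the male side, by a margin that shrank against male replicate 1 alone. The median log2 fold change was 1.43 over the genes called higher in females and -2.68 over those called higher in males. Log2 fold changes of 2 or more were found for 495 genes called higher in females and 5296 called higher in males, and at a threshold of 5 the counts were 18 and 743. Against male replicate 1 alone they were 2682 and 5619 at the threshold of 2 and 498 and 806 at that of 5. Over the 3213 female-high calls with a female mean of at least 10 CPM, the median log2 ratio of the female mean to the single male libraries was 1.94 for replicate 1, 1.21 for replicate 2 and 1.19 for replicate 3. Over the 3747 male-high calls with a male mean of at least 10 CPM it was -2.85, -2.46 and -2.47. The genes called higher in females took 33.6, 33.4 and 34.3% of the counts of female replicates 1, 2 and 3, against 6.45, 12.1 and 12.2% of the counts of male replicates 1, 2 and 3. Those called higher in males took 10.2, 10.4 and 9.20% in the females, against 57.8, 47.5 and 47.4% in the males.

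**Figure D2:**
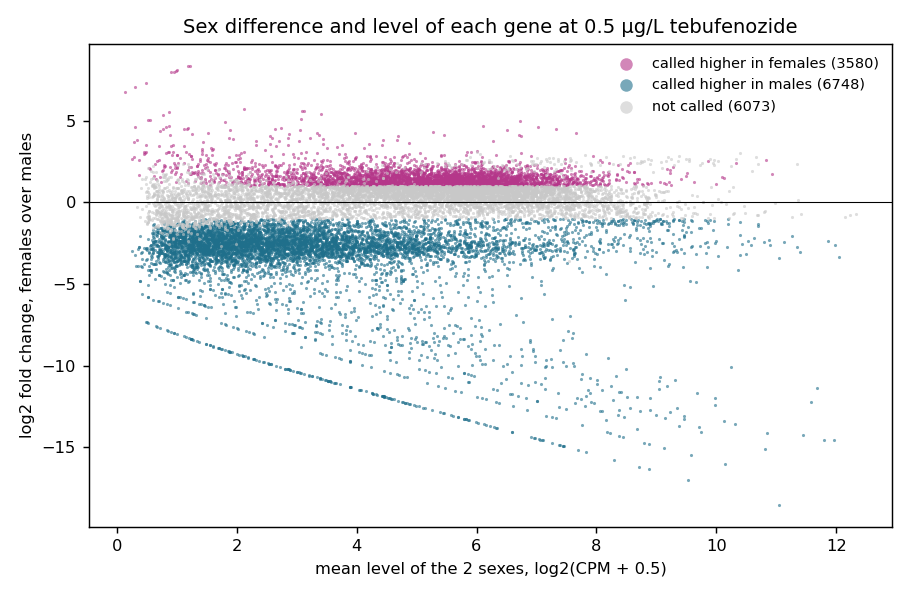
Each point is 1 of the 16401 genes tested, with the mean level of both sexes on the x axis as log2(CPM + 0.5) and the log2 fold change of females over males on the y axis. The 6748 genes called higher in males reach far larger differences than the 3580 called higher in females, and the lowest band holds genes without a count in females, whose fitted fold change depends on the prior count.

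The 6 libraries did not overlap for 6454 genes with females above (39.4% of the genes tested) and 7517 with males above (45.8%). Of the genes with males above, 6680 were also called, and of those with females above 3566 were. Among the 2888 genes with all females above all males that were not called, 2681 had a female mean of at least 10 CPM, and 149 of these lay at least 8-fold above male replicate 1. For the described genes given below, females and males did not overlap unless stated.

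Expression of at least 10 CPM that was confined to a single sex over the 6 libraries was found in males. Without that cut, 184 genes called higher in males had no count in females, and 9 called higher in females had none in males. At least 10 CPM in every male library and no count in any female library was seen for 114 genes, whose male means ran from 12.2 to 4210 CPM with a median of 49.3 CPM. No gene showed the reverse pattern over the 3 male libraries, although 70 genes with at least 10 CPM in every female library had no count in male replicate 1, against 0 in replicate 2 and 2 in replicate 3. Counted against each female library singly, 165, 239 and 263 male-expressed genes had no count in female replicates 1, 2 and 3. The 114 genes took 2.17, 1.37 and 1.35% of the counts of male replicates 1, 2 and 3, and 104 of them were highest in replicate 1. Only 13 of the 114 had a description in the tables used here. Among the male-high genes with the most CPM, 2 had almost no counts in females. LOC111712816 had 0.0565, 0.441 and 0.536 CPM in females, against 9580, 7245 and 7224 CPM in males, and LOC111714541 had 0.113, 0.629 and 0.0894 CPM in females, against 10750, 5340 and 5363 CPM in males, and neither has a description.

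The yolk protein precursor separated the sexes. Vitellogenin-like LOC111704362 had 88.8, 83.0 and 76.1 CPM in females, against 0, 6.69 and 7.13 CPM in males. The log2 fold change of females over males was 4.11 ± 0.81 (standard error), with an adjusted p = 0.00369 by the quasi-likelihood test of edgeR, and male replicates 2 and 3, which held female-high RNA, were the male libraries with counts. High choriolytic enzyme 1-like LOC111715359, whose namesake in fish is a hatching protease that softens the egg envelope, had 32.9, 39.4 and 14.1 CPM in females, against 0.169, 3.28 and 0.983 CPM in males (log2 fold change 4.22, standard error 0.71, adjusted p = 0.00101). Both genes were named from calls without overlap of the 6 libraries, and the lowest female value of the protease was that of the library on the other flow cell. Zinc metalloproteinase nas-14-like LOC111714754, another protease, had 23.8, 25.6 and 5.81 CPM in females, against 0, 2.49 and 0.246 CPM in males (log2 fold change 4.26, adjusted p = 0.00556). Hemocyanin F chain-like LOC111713766, named after the oxygen carrier of crustacean blood, had 139, 145 and 146 CPM in females, against 3.21, 16.1 and 12.5 CPM in males (3.73, adjusted p = 0.000331). The fifth described gene of this rank, peroxidase-like LOC111708724, had 10.2, 13.0 and 8.76 CPM in females, against 0.507, 0.787 and 1.48 CPM in males (3.47, adjusted p = 0.00016).

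**Figure D3:**
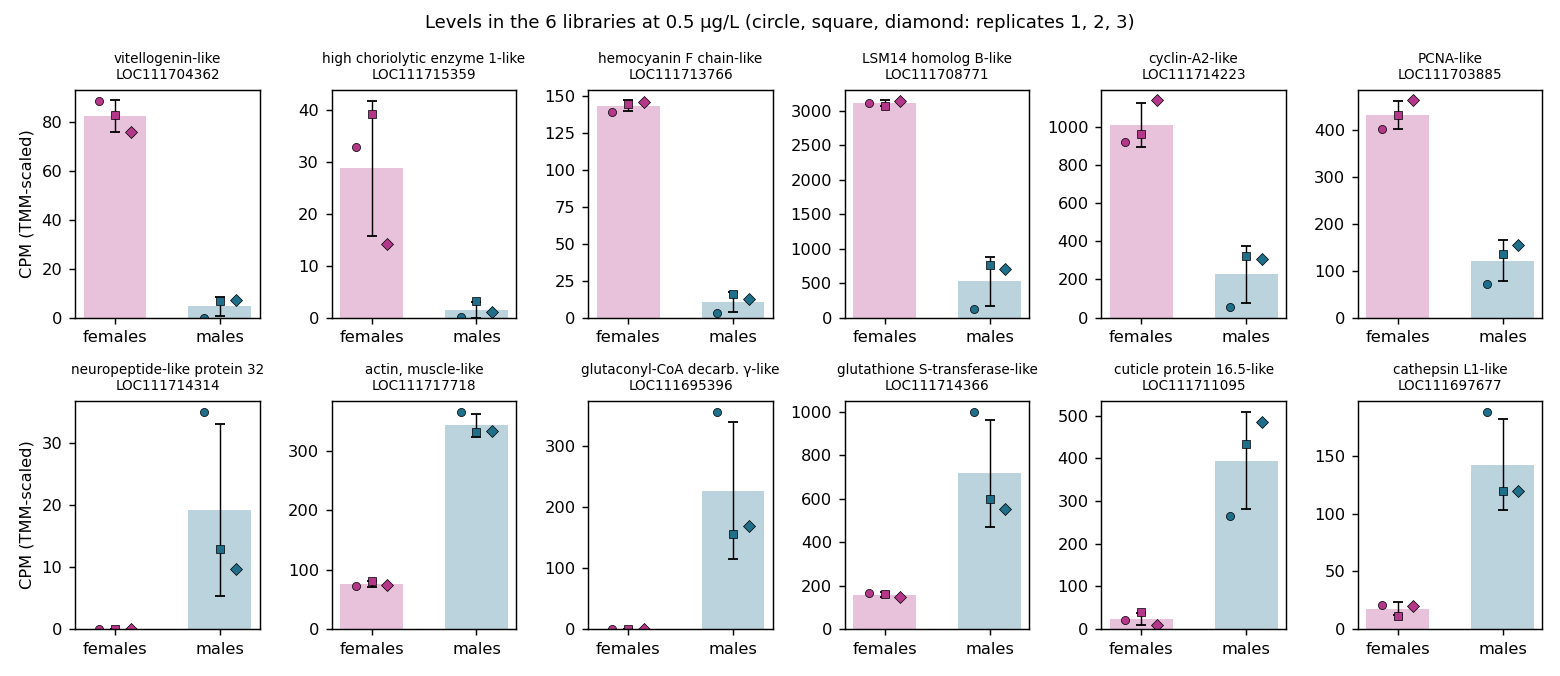
TMM-scaled CPM of 6 genes higher in females (top) and 6 higher in males (bottom), with a point per library, the bar at the mean and the line at ±1 SD (n = 3 pools per sex). Vitellogenin-like reaches 88.8 CPM in females and at most 7.13 CPM in males, and neuropeptide-like protein 32 is at 0 CPM in all 3 females. Male replicate 1 (circle) is the lowest male in every panel of the top row.

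Among the female-high genes with the most CPM, 2 have names of proteins that bind stored mRNA. Protein LSM14 homolog B-like LOC111708771, a component of the particles that store untranslated mRNA in oocytes of vertebrates, had 3114, 3070 and 3150 CPM in females, against 119, 756 and 711 CPM in males (log2 fold change 2.56, standard error 0.74, adjusted p = 0.026 by the quasi-likelihood test of edgeR). Its call was lost without any 1 female library or without male replicate 3 (adjusted p from 0.0566 to 0.0617). Eukaryotic translation initiation factor 4E transporter-like LOC111706520, which represses the translation of bound mRNA, had 2126, 2220 and 2170 CPM in females, against 121, 545 and 556 CPM in males (2.41, adjusted p = 0.0144). Over male replicate 1 alone the log2 fold changes of these genes were 4.90 and 4.36.

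Of 8 genes in the list of germ line and maternal RNA, 3 were called higher in females, 1 higher in males and 4 in neither direction. Over all genes tested, 21.8% were called higher in females and 41.1% higher in males. Of the 1422 tested genes that had a name in the study's tables, 689 were called higher in females and 508 higher in males. The median log2 fold change of the list was 1.82, beside -0.24 over all genes tested. Maternal protein exuperantia-1-like LOC111705270, which in Drosophila places bicoid mRNA in the oocyte, had 119, 118 and 137 CPM in females, against 15.0, 49.5 and 40.6 CPM in males (log2 fold change 1.83, adjusted p = 0.00262 by the quasi-likelihood test of edgeR). Protein bicaudal C homolog 1-A-like LOC111698166, an RNA-binding protein of oogenesis, had 658, 625 and 615 CPM in females, against 22.1, 171 and 172 CPM in males (2.38, adjusted p = 0.0371), and its call was lost in every fit without 1 library except that without male replicate 1 (adjusted p from 0.0633 to 0.0824). The RNA helicase vasa-like LOC111702462, a marker of germ cells of either sex, had 312, 299 and 181 CPM in females, against 17.6, 105 and 103 CPM in males, and missed the threshold (1.81, adjusted p = 0.0562). Without male replicate 1 its adjusted p was 0.00282, and over male replicate 1 alone its log2 fold change was 4.10. A second vasa-like gene, LOC111703234, had 524, 515 and 361 CPM in females, against 27.0, 174 and 164 CPM in males. It missed the threshold too (1.94, adjusted p = 0.051 by the same test). In both genes the lowest female value was that of female replicate 3, the library on the other flow cell. The member called higher in males was bicaudal D-related protein homolog LOC111700578, at 1.41, 0.756 and 1.97 CPM in females, against 7.94, 6.03 and 6.02 CPM in males (-2.28, adjusted p = 0.00143). Against male replicate 1 alone, 6 of the 8 members were called higher in females and 1 higher in males.

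Several genes with wide gaps between the sexes were not called, and in them male replicate 1 stood far from male replicates 2 and 3. The following were chosen after their values were seen. Very low-density lipoprotein receptor-like LOC111702980, of the receptor family that takes up vitellogenin into oocytes, had 817, 791 and 880 CPM in females, against 3.21, 201 and 207 CPM in males. Its log2 fold change was 2.59 with a standard error of 1.35 (adjusted p = 0.137 by the quasi-likelihood test of edgeR). It was 2.05 without male replicate 1 and 8.20 over male replicate 1 alone. No p-value is given for these fits, because the gap between the male libraries was what the gene was chosen for. Low-density lipoprotein receptor-related protein LOC111702101, of the same family, had 519, 474 and 495 CPM in females, against 2.20, 106 and 108 CPM in males (2.78, adjusted p = 0.0998). Cytoplasmic polyadenylation element-binding protein LOC111696463, which wakes stored mRNA in maturing oocytes, had 276, 231 and 271 CPM in females, against 2.53, 74.4 and 78.5 CPM in males (2.32, adjusted p = 0.112). Histone H2A.v2-like LOC111708142 had 320.0, 353 and 356 CPM in females, against 2.20, 89.5 and 93.0 CPM in males (2.47, adjusted p = 0.116). In each of these 4 genes male replicate 1 was near 0, male replicates 2 and 3 lay close to each other, and all females were above all males. Another very low-density lipoprotein receptor-like gene, LOC111700908, was called higher in males. It had 5.93, 8.88 and 3.84 CPM in females, against 29.6, 22.2 and 24.7 CPM in males (-2.02, adjusted p = 0.000649 by the same test).

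Genes of DNA replication were higher in females, as were most of the cell cycle list. All 18 members of the DNA replication list were called higher in females, with log2 fold changes from 1.11 to 2.31 and a median of 1.83. Of all genes tested, 21.8% were called in that direction. Names came from the study's tables of genes that responded to exposure, and 689 of the 1422 tested genes with a name were called in that direction. Ribonucleoside-diphosphate reductase large subunit-like LOC111696462, which supplies deoxyribonucleotides, had 596, 597 and 646 CPM in females, against 87.7, 223 and 206 CPM in males (log2 fold change 1.83, standard error 0.32, adjusted p = 0.00133 by the quasi-likelihood test of edgeR). DNA ligase 1-like LOC111707157, which joins the fragments of the lagging strand, had 583, 607 and 601 CPM in females, against 148, 246 and 264 CPM in males (1.45, adjusted p = 0.000355). Proliferating cell nuclear antigen-like LOC111703885, the sliding clamp of the polymerases, had 402, 432 and 464 CPM in females, against 72.1, 136 and 156 CPM in males (1.83, adjusted p = 0.00035). All 18 members were also called without male replicate 1 and against male replicate 1 alone, where the median log2 ratio to that library was 2.76.

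In the cell cycle list, 17 of 19 genes were called higher in females and 1 higher in males, beside 21.8 and 41.1% of all genes tested. The median log2 fold change of the list was 1.87. Of the 1422 tested genes with a name, 689 were called higher in females and 508 higher in males. Cyclin-A2-like LOC111714223, which drives S phase and entry into mitosis, had 923, 966 and 1140 CPM in females, against 55.8, 321 and 306 CPM in males (log2 fold change 2.15, adjusted p = 0.0309 by the quasi-likelihood test of edgeR). Its call was lost in every fit without 1 library except the fit without male replicate 1 (adjusted p from 0.0501 to 0.0717 in the others). The mitotic kinase serine/threonine-protein kinase PLK1-like LOC111703977 had 177, 179 and 197 CPM in females, against 14.5, 55.1 and 47.7 CPM in males (2.23, adjusted p = 0.00249). The member called in neither direction was G2/mitotic-specific cyclin-B-like LOC111702910, at 124, 119 and 144 CPM in females, against 2.53, 43.8 and 36.1 CPM in males (2.22, adjusted p = 0.0621). The male-high member was inner centromere protein-like LOC111709449, named for a subunit of the chromosomal passenger complex, with 7.51, 5.86 and 3.58 CPM in females, against 59.1, 28.1 and 35.9 CPM in males (-2.84, adjusted p = 0.000239). Both genes of the meiosis list were higher in females. Meiotic nuclear division protein 1 homolog LOC111695634 had 70.9, 79.0 and 91.9 CPM in females, against 9.12, 26.2 and 20.8 CPM in males (2.10, adjusted p = 0.000705), and meiosis-specific nuclear structural protein 1-like LOC111710204 had 80.1, 79.8 and 78.0 CPM in females, against 8.28, 19.0 and 26.3 CPM in males (2.14, adjusted p = 0.000752).

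Chromatin genes lay on the same side, that of the females, where 21.8% of all genes tested were called. Of the 1422 tested genes with a name, from which the lists were drawn, 689 were called on that side. Of 4 histone genes, 3 were called higher in females and none higher in males, and late histone H1-like LOC111703046, a linker histone, had 1477, 1617 and 1689 CPM in females, against 44.4, 401 and 370.2 CPM in males (log2 fold change 2.55, adjusted p = 0.0417 by the quasi-likelihood test of edgeR). That call was lost in every fit without 1 library except the fit without male replicate 1, with an adjusted p of at most 0.0898. Histone H2A-like LOC111699064 had 167, 180 and 207 CPM in females, against 17.4, 62.0 and 47.6 CPM in males (2.12, adjusted p = 0.00223). All 3 members of the DNA methylation list were higher in females. DNA (cytosine-5)-methyltransferase 1-like LOC111700762, which copies methylation onto new strands, had 85.3, 77.6 and 91.3 CPM in females, against 7.27, 37.3 and 32.6 CPM in males (1.71, adjusted p = 0.015), and DNA N6-methyl adenine demethylase-like LOC111713817 had 298, 253 and 281 CPM in females, against 41.6, 126 and 139 CPM in males (1.44, adjusted p = 0.0149). Both transformer-2 protein homolog beta-like genes, whose Drosophila namesake takes part in sex-specific splicing, were higher in females. LOC111704192 had 191, 209 and 151 CPM in females, against 74.7, 85.0 and 85.0 CPM in males (1.17, adjusted p = 0.00024), and the log2 fold change of LOC111701846 was 1.21 (adjusted p = 0.002). The calls of both were lost with upper quartile factors, where the fold fell under 2.

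Male-high genes included those with the widest gaps. Neuropeptide-like protein 32 LOC111714314, named for a family of small secreted neuropeptides, had no count in females, against 35.0, 12.9 and 9.59 CPM in males. With 0 counts in the females together and 383 in the males, it was at least 264-fold higher in males, taking 3 counts over the group as the floor. Glutaconyl-CoA decarboxylase subunit gamma-like LOC111695396 had 0, 0.063 and 0 CPM in females, against 357, 157 and 169 CPM in males, from 1 count in all females and 4675 in all males. The ratio of males to females was 9660, with a 95% interval for counting error of 1730 to 382000. Serpin B10-like LOC111700682, of a family of protease inhibitors, had 0.339, 0.063 and 0 CPM in females, against 147, 75.8 and 73.4 CPM in males (7 and 2046 counts, ratio 604, interval 292 to 1500). Protein disulfide-isomerase-like LOC111708797, named for an enzyme that forms disulfide bonds in the endoplasmic reticulum, had 1.98, 0.944 and 0.983 CPM in females, against 275, 195 and 183 CPM in males (log2 fold change -7.34, standard error 0.34, adjusted p = 1.99e-06 by the quasi-likelihood test of edgeR). For ras and EF-hand domain-containing protein-like LOC111711090 the values were 0.113, 0.252 and 0.0894 CPM in females, against 18.1, 11.2 and 9.83 CPM in males. Male replicate 1 was the highest library for all 5 genes.

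**Figure D4:**
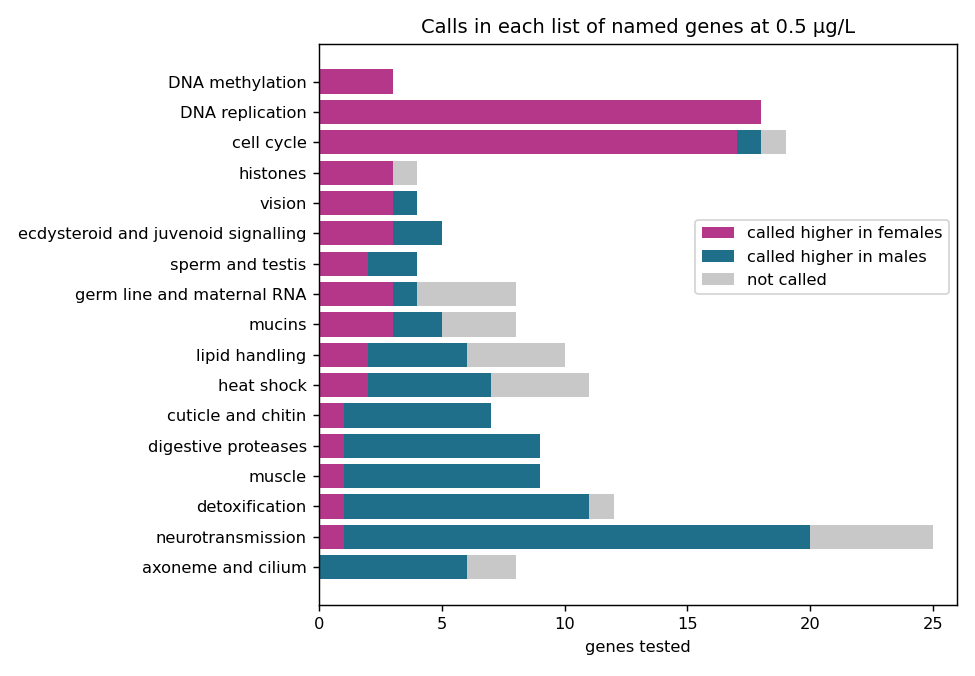
Number of genes called higher in females, called higher in males and not called in each list of named genes with at least 3 members tested. DNA replication (18 of 18) and cell cycle (17 of 19) lie almost wholly with the females, and muscle (8 of 9), digestive proteases (8 of 9) and detoxification (10 of 12) with the males.

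Names that refer to sperm did not all lie with the males. Of 4 genes in the list of sperm and testis, 2 were called higher in males and 2 higher in females, beside 41.1 and 21.8% of all genes tested. Fibrous sheath CABYR-binding protein-like LOC111713970, named for a protein of the mammalian sperm tail, had 17.1, 32.6 and 16.5 CPM in females, against 184, 196 and 200.0 CPM in males (log2 fold change -3.13, standard error 0.27, adjusted p = 2.89e-05 by the quasi-likelihood test of edgeR). Zonadhesin-like LOC111706122, named for a mammalian sperm protein that binds the egg coat, had 1.81, 1.95 and 1.70 CPM in females, against 20.8, 24.4 and 26.2 CPM in males (-3.70, adjusted p = 8.51e-06). Another zonadhesin-like gene, LOC111716440, ran the other way with 155, 144 and 146 CPM in females, against 50.5, 78.0 and 70.3 CPM in males (1.16, adjusted p = 0.000479), and its log2 fold change was 0.84 with upper quartile factors, under the threshold. Gametogenetin-binding protein 2-like LOC111697048 had 32.7, 34.7 and 26.6 CPM in females, against 7.60, 13.4 and 11.7 CPM in males (1.52, adjusted p = 0.0009).

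Genes of cilia were mostly higher in males. Of 8 genes in the axoneme and cilium list, 6 were called higher in males, beside 41.1% of all genes tested, and none higher in females, with a median log2 fold change of -2.42. Intraflagellar transport protein 20 homolog LOC111701900, which carries cargo into growing cilia, had 1.24, 0.189 and 0.0894 CPM in females, against 16.4, 13.1 and 8.36 CPM in males (log2 fold change -4.49, adjusted p = 0.000605 by the quasi-likelihood test of edgeR). For intraflagellar transport protein 88 homolog LOC111704207 the values were 2.99, 3.34 and 2.06 CPM in females, against 11.5, 11.3 and 12.3 CPM in males (-2.05, adjusted p = 0.000346). The exception in direction was an axoneme-associated protein mst101(2)-like gene, LOC111695653, at 2107, 2211 and 2321 CPM in females, against 11.2, 529 and 534 CPM in males. It was not called (2.63, standard error 1.33, adjusted p = 0.129), and its log2 fold change was 2.08 without male replicate 1.

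Muscle genes were higher in males. Of 9 members, 8 were called higher in males, where 41.1% of all genes tested were called in that direction, and the median log2 fold change of the list was -2.31. Myosin regulatory light chain 2-like LOC111708305 had 132, 161 and 151 CPM in females, against 830.4, 769 and 706 CPM in males (log2 fold change -2.38, standard error 0.13, adjusted p = 3.37e-06 by the quasi-likelihood test of edgeR). Actin, muscle-like LOC111717718, a thin filament protein, had 72.7, 81.4 and 74.1 CPM in females, against 366, 331 and 333 CPM in males (-2.17, standard error 0.12, adjusted p = 3.37e-06). Titin-like LOC111697095, named for the elastic protein of the sarcomere, had 18.5, 16.8 and 13.5 CPM in females, against 130.3, 104 and 96.0 CPM in males (-2.76, adjusted p = 1.16e-05). Male replicate 1 was the highest library for each of these 3 genes. Myosin heavy chain, muscle-like LOC111711689 had 20.4, 16.9 and 4.92 CPM in females, against 116, 90.5 and 92.4 CPM in males (-2.81, adjusted p = 0.000965), with its lowest value in the library on the other flow cell, and it was not called against male replicate 1 alone (adjusted p = 0.0538). The member called higher in females, calponin homology domain-containing protein DDB_G0272472-like LOC111694945, carries the name of a protein of an amoeba and is no known part of the sarcomere (1.22, adjusted p = 0.000254), and its log2 fold change was 0.89 with upper quartile factors, under the threshold.

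Neurotransmission genes lay mostly with the males as well. Of 25 members, 19 were called higher in males and 1 higher in females, beside 41.1 and 21.8% of all genes tested, with a median log2 fold change of -2.12. The acr-16-like subunit of an acetylcholine receptor, LOC111697821, which forms a cation channel, had 11.1, 13.7 and 11.3 CPM in females, against 48.3, 55.4 and 48.8 CPM in males (log2 fold change -2.08, adjusted p = 3.6e-05 by the quasi-likelihood test of edgeR). Neurexin-3-like LOC111698578, an adhesion protein of synapses, had 10.4, 11.5 and 10.7 CPM in females, against 57.3, 47.4 and 37.1 CPM in males (-2.12, adjusted p = 7.16e-05). Acetylcholinesterase-like LOC111696990, which breaks acetylcholine down, had 1.92, 1.20 and 1.70 CPM in females, against 15.7, 17.2 and 9.59 CPM in males (-3.13, adjusted p = 0.000113), and sodium channel protein para-like LOC111713140 had 7.34, 4.41 and 5.99 CPM in females, against 56.3, 31.4 and 39.2 CPM in males (-2.83, adjusted p = 8.76e-05). Transporters of monoamines went in both directions. Sodium-dependent serotonin transporter-like LOC111698482 had 0.226, 0.63 and 0.447 CPM in females, against 35.5, 16.8 and 21.3 CPM in males (-5.80, adjusted p = 2.02e-05). Sodium-dependent dopamine transporter-like LOC111697080 had 157, 154 and 158 CPM in females, against 4.06, 41.5 and 40.1 CPM in males (2.44, adjusted p = 0.0293), a call that was lost without any 1 female library or without male replicate 3 (adjusted p from 0.0522 to 0.0653). A second sodium-dependent dopamine transporter-like gene, LOC111705348, named after its values were seen, had 2.09, 0.944 and 1.43 CPM in females, against 6.76, 6.30 and 9.71 CPM in males (-2.34, adjusted p = 0.000985). Chaoptin-like LOC111695981, known as an adhesion protein of photoreceptors in Drosophila, had 128, 123 and 125 CPM in females, against 1.52, 33.2 and 31.6 CPM in males and was at the threshold (2.49, adjusted p = 0.05), and its call was lost in every fit without 1 library except that without male replicate 1 (adjusted p at most 0.104).

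Cuticle proteins were higher in males. In the list of cuticle and chitin, 6 of 7 genes were called higher in males, beside 41.1% of all genes tested, and 1 higher in females, with a median log2 fold change of -4.11. Cuticle protein 16.5-like LOC111711095 had 22.0, 39.1 and 10.01 CPM in females, against 266, 433 and 484 CPM in males (log2 fold change -4.05, standard error 0.55, adjusted p = 0.000764 by the quasi-likelihood test of edgeR). The other cuticle protein 16.5-like genes had lower levels. LOC111704119 had 2.03, 2.14 and 1.43 CPM in females, against 30.4, 64.4 and 60.5 CPM in males (-4.77, adjusted p = 1.53e-05). The values of LOC111708925 were 3.44, 2.33 and 0.715 CPM in females, against 23.3, 44.9 and 48.1 CPM in males (-4.11, adjusted p = 0.000182), and LOC111702984 had 0.508, 1.89 and 0.447 CPM in females, against 8.62, 11.2 and 10.7 CPM in males (-3.38, adjusted p = 0.000645). Cuticle protein 7-like LOC111697606 had 2.37, 2.71 and 1.34 CPM in females, against 32.4, 63.2 and 55.8 CPM in males (-4.53, adjusted p = 1.97e-05). A second cuticle protein 7-like gene, LOC111698563, had 28.0, 29.6 and 3.31 CPM in females, against 169, 993 and 1049 CPM in males (-5.17, standard error 1.25, adjusted p = 0.0154). Its call was lost without female replicate 1 or 2 (adjusted p = 0.0522 and 0.051) and against male replicate 1 alone (log2 fold change -2.83, adjusted p = 0.145). For all 6 cuticle protein genes male replicate 1 was the lowest of the males, and female replicate 3, the library on the other flow cell, the lowest of the females. The study listed LOC111697606, LOC111702984, LOC111704119 and LOC111708925 as lower in females at 0.5 µg/L than in control females. Names came from such lists, so low female values at this dose were part of how these genes came to be named. In control copepods their log2 fold changes of females over males were -2.01, -1.43, -2.71 and -1.95, in the order given. Those of LOC111698563 and LOC111711095 in controls were -0.86 and -2.11. The female-high member was endochitinase A-like LOC111697179, named for an enzyme that cleaves chitin, with 188, 189 and 198 CPM in females, against 37.8, 97.9 and 102 CPM in males (1.27, adjusted p = 0.00842), and its fold change was under 2 without male replicate 1 and with upper quartile factors.

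Genes of the ecdysteroid and juvenoid pathways were split between the sexes. Of 5 genes, 3 were called higher in females and 2 higher in males, beside 21.8 and 41.1% of all genes tested. The 3 higher in females were broad-complex core protein genes, transcription factors that respond early to ecdysone in insects. LOC111709681 had 412, 437 and 538 CPM in females, against 119, 204 and 209 CPM in males (log2 fold change 1.38, standard error 0.22, adjusted p = 0.000652 by the quasi-likelihood test of edgeR). LOC111694963 had 205, 203 and 228 CPM in females, against 28.4, 92.3 and 76.9 CPM in males (1.68, adjusted p = 0.00478). LOC111704351 had 74.2, 73.5 and 72.7 CPM in females, against 8.28, 45.5 and 34.9 CPM in males (1.30, adjusted p = 0.0447), and its call was lost in every fit without 1 library except that without male replicate 2. Ecdysone-induced protein 74EF-like LOC111704069, another early response factor of insects, was on the male side with 8.47, 9.57 and 3.49 CPM in females, against 18.8, 19.0 and 15.1 CPM in males (-1.28, adjusted p = 0.0112). Without female replicate 3, the library on the other flow cell, its fold change was under 2. Methyl farnesoate epoxidase-like LOC111717477, named for the enzyme that makes juvenile hormone in insects, had 1.07, 0.756 and 2.68 CPM in females, against 9.80, 3.80 and 5.29 CPM in males (-2.09, adjusted p = 0.00983).

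Of the genes that the study groups under reproduction, 5 have been given above and the other 3 were higher in males. Neprilysin-1-like LOC111695973, of a family of membrane peptidases, had 0.565, 1.13 and 0.0894 CPM in females, against 22.1, 7.61 and 10.3 CPM in males (log2 fold change -4.38, adjusted p = 0.000542 by the quasi-likelihood test of edgeR). Neprilysin-2-like LOC111714647 had 5.42, 6.55 and 4.38 CPM in females, against 41.6, 21.5 and 25.8 CPM in males (-2.43, adjusted p = 0.000224). Protein white-like LOC111700675, whose Drosophila namesake transports pigment precursors, had 1.47, 0.378 and 0.715 CPM in females, against 9.80, 4.46 and 4.67 CPM in males (-2.84, adjusted p = 0.00228).

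Digestive proteases and detoxification enzymes were higher in males. Of 9 proteases, 8 were called higher in males and 1, the nas-14-like gene given above, higher in females, beside 41.1 and 21.8% of all genes tested, with a median log2 fold change of -2.43. Cathepsin L1-like LOC111697677, a cysteine protease, had 21.1, 11.6 and 20.3 CPM in females, against 188, 119 and 120 CPM in males (log2 fold change -3.01, standard error 0.29, adjusted p = 5e-05 by the quasi-likelihood test of edgeR). Aminopeptidase N-like LOC111695813, which trims peptides from their amino end, had 8.13, 6.55 and 8.13 CPM in females, against 56.4, 39.1 and 41.7 CPM in males (-2.59, adjusted p = 3.29e-05). Carboxypeptidase B-like LOC111703255, which works from the other end, had 4.80, 4.79 and 5.27 CPM in females, against 53.9, 38.7 and 42.7 CPM in males (-3.18, adjusted p = 1.02e-05). Male replicate 1 was the highest library for these 3 genes.

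In the detoxification list, 10 of 12 genes were called higher in males and 1 higher in females, beside 41.1 and 21.8% of all genes tested, with a median log2 fold change of -2.09. Glutathione S-transferase-like LOC111714366, which couples glutathione to toxic compounds, had 165, 162 and 146 CPM in females, against 1001, 598 and 555 CPM in males (log2 fold change -2.19, standard error 0.23, adjusted p = 6.94e-05 by the quasi-likelihood test of edgeR). The fold change of glutathione S-transferase 1-like LOC111698532 was close to 2, with 149, 153 and 192 CPM in females, against 447, 296 and 314 CPM in males (-1.10, adjusted p = 0.000839). It was under 2 with the size factors of DESeq2, with library size alone, without female replicate 1 and without male replicate 1. Probable cytochrome P450 6a13 LOC111705105, of the oxidases that attack foreign compounds, had 4.80, 6.61 and 3.13 CPM in females, against 44.9, 35.7 and 37.7 CPM in males (-3.01, adjusted p = 5.65e-05), and multidrug resistance protein 1-like LOC111712699, named for an export pump, had 20.0, 15.8 and 17.2 CPM in females, against 71.6, 83.4 and 75.2 CPM in males (-2.12, adjusted p = 2.07e-05). Esterase FE4-like LOC111715882, named for an enzyme that gives aphids resistance to insecticides, was the female-high member with 34.6, 34.2 and 36.8 CPM in females, against 4.39, 14.2 and 9.59 CPM in males (1.89, adjusted p = 0.00161).

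Heat shock genes had no common direction. Over all genes tested, 21.8% were called higher in females and 41.1% higher in males. Of 11 members, 2 were called higher in females, 5 higher in males and 4 in neither direction, and the number higher in males was 1 without male replicate 1, without female replicate 2 or without female replicate 3. Heat shock protein beta-1-like LOC111708726, a small chaperone, had 14.8, 17.4 and 12.3 CPM in females, against 76.5, 60.9 and 66.5 CPM in males (log2 fold change -2.19, standard error 0.20, adjusted p = 3.6e-05 by the quasi-likelihood test of edgeR). HSPB1-associated protein 1-like LOC111709867 had 33.9, 37.7 and 36.7 CPM in females, against 3.55, 9.18 and 10.9 CPM in males (2.17, adjusted p = 0.000756). Heat shock 70 kDa protein-like LOC111711631 had 225, 211 and 245 CPM in females, against 4.73, 83.7 and 66.2 CPM in males, and was not called (2.13, adjusted p = 0.0924). Heat shock 70 kDa protein 1-like LOC111704938 was called higher in males at low levels. It had 0.96, 0.881 and 0.626 CPM in females, against 4.39, 1.84 and 1.97 CPM in males (-1.68, adjusted p = 0.0161). Its call was lost without female replicate 2 or 3 or male replicate 1 (adjusted p from 0.0565 to 0.091). Endoplasmin-like LOC111703750, a chaperone of the endoplasmic reticulum that the list does not hold, had 1589, 1638 and 1716 CPM in females, against 312, 721 and 734 CPM in males (1.48, adjusted p = 0.0031).

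Lipid handling and mucin genes went both ways, where 21.8 and 41.1% of all genes tested were called higher in females and in males. Of 10 genes of lipid handling, 2 were called higher in females and 4 higher in males, and the counts were 6 and 4 both without male replicate 1 and against male replicate 1 alone, and 1 and 4 without any 1 female library or without male replicate 3. Prolow-density lipoprotein receptor-related protein 1-like LOC111712641, a receptor that takes lipoproteins into cells, had 93.3, 75.5 and 77.5 CPM in females, against 1.86, 25.6 and 21.1 CPM in males (log2 fold change 2.32, adjusted p = 0.0261 by the quasi-likelihood test of edgeR), a call lost without any 1 female library or without male replicate 3. Monoglyceride lipase-like LOC111705994 had 59.5, 65.7 and 74.1 CPM in females, against 8.11, 26.5 and 28.3 CPM in males (1.65, adjusted p = 0.00509). Phospholipase D alpha 2-like LOC111698486 lay on the male side, with 7.40, 5.23 and 5.18 CPM in females, against 38.2, 33.3 and 24.1 CPM in males (-2.42, adjusted p = 0.000111). Of 8 mucin genes, 3 were called higher in females and 2 higher in males, and the counts were 5 and 2 without male replicate 1 and 6 and 1 against male replicate 1 alone. Mucin-5AC-like LOC111710342, named for a gel-forming glycoprotein, had 232, 220 and 211 CPM in females, against 85.2, 105 and 103 CPM in males (1.18, adjusted p = 9.36e-05), a call lost with upper quartile factors (0.85). Another gene of that name, LOC111697205, had 2.26, 2.52 and 1.97 CPM in females, against 22.6, 13.9 and 17.5 CPM in males (-2.99, adjusted p = 5.42e-05). The study listed it as lower in females at both doses than in control females, and its log2 fold change in controls was -0.76. Integumentary mucin C.1-like LOC111711799 had 78.3, 78.1 and 32.9 CPM in females, against 341, 393 and 416 CPM in males (-2.60, adjusted p = 0.000235), and its adjusted p was 0.0504 against male replicate 1 alone.

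Of the 170 genes in these lists, 145 were called in either direction, beside 63% of all genes tested. The lists were drawn from genes with a name, which were called in a share close to that of the lists. The gap to the 63% therefore says nothing particular to the lists. Names were at hand for only 1434 of the 23728 genes because they came from the study's tables of genes that responded to exposure. Of the 1422 genes with a name that were tested, 689 were called higher in females and 508 higher in males, so the named genes were weighted towards females relative to all genes. The female-high genes with the most CPM included LOC111704298 at 2637, 2762 and 3600 CPM in females, against 438, 1133 and 1187 CPM in males (log2 fold change 1.71, adjusted p = 0.00727 by the quasi-likelihood test of edgeR), and LOC111697939 at 1378, 1530 and 2020 CPM in females, against 356, 670 and 635 CPM in males (1.57, adjusted p = 0.000814), and neither has a description.

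The sex difference was then set beside that of the controls and of the 50 µg/L copepods, which share no library with it. Called genes numbered 1259 higher in females and 5341 higher in males in controls (7.49 and 31.8% of 16799 genes tested, 39.3% in either direction), 3580 and 6748 at 0.5 µg/L, and 4761 and 6885 at 50 µg/L (29.7 and 43% of 16019, 72.7% in either direction). Of the genes called higher in females at 0.5 µg/L, 1090 were also called so in controls (30.4% of the list at 0.5 µg/L and 86.6% of that of the controls), and 3328 were also called so at 50 µg/L (93.0 and 69.9%). For genes called higher in males, 5013 were shared with the controls (74.3 and 93.9%) and 5969 with 50 µg/L (88.5 and 86.7%). Only 1 gene was called in opposite directions at 0.5 µg/L and in controls, and 1 at 0.5 and 50 µg/L. Calls of the same direction in all 3 comparisons were made for 1066 genes higher in females and 4774 higher in males, and 227 and 539 genes were called at 0.5 µg/L alone.

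Across genes, the log2 fold changes at 0.5 µg/L had a Pearson r of 0.954 with those of the controls (16033 genes) and 0.915 with those at 50 µg/L (15557 genes), as a description over genes that share their libraries and are not independent. For genes called higher in females at 0.5 µg/L, the median log2 fold change was 1.03 in controls, 1.43 at 0.5 µg/L and 1.94 at 50 µg/L. The female-high level of the males moved beside it, as the 232 genes stood at up to 45.8% of the female mean in control males and at up to 26.0% in those at 0.5 µg/L, and its part in this order was not tested. For genes called higher in males the medians were -2.11 in controls, -2.68 at 0.5 µg/L and -3.08 at 50 µg/L. Both sets of genes were chosen at 0.5 µg/L, which enlarges the medians at that dose and not those of the other groups. Part of the step from the controls may follow from that choice. The whole 50 µg/L set shared the Mid Output flow cell with female replicate 3 at 0.5 µg/L, so that dose and flow cell cannot be told apart in that comparison.

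**Figure D5:**
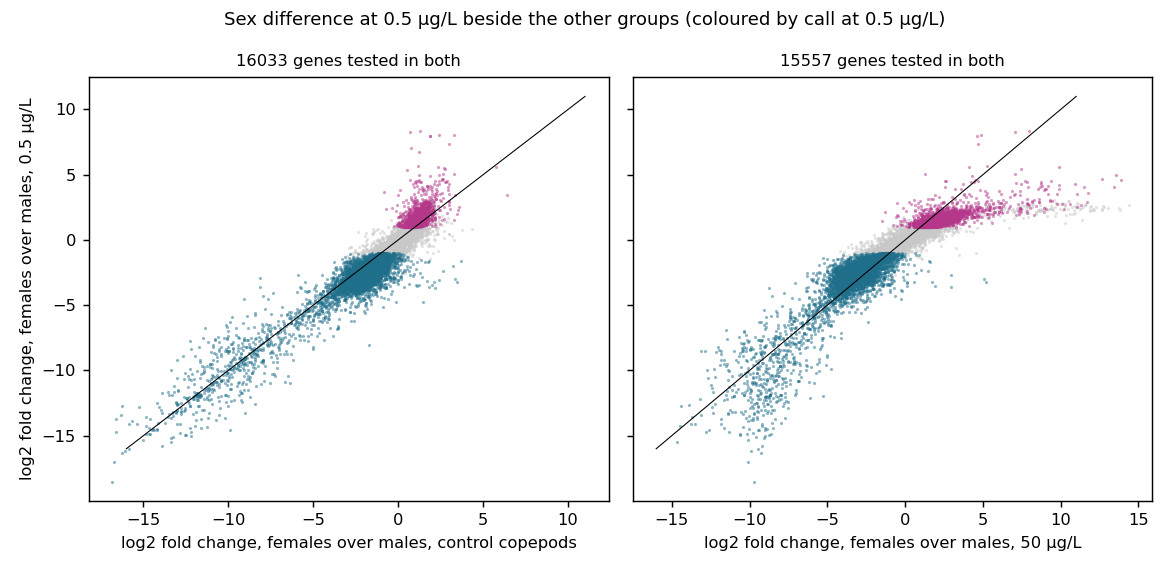
Log2 fold change of females over males at 0.5 µg/L (y axis) against that of the controls (left, 16033 genes) and at 50 µg/L (right, 15557 genes), with genes called higher in females at 0.5 µg/L in magenta, those called higher in males in blue and the others in grey. Points follow the line of equal values in most of the range, and the 232 genes highest in females at 50 µg/L have a median of 2.49 at 0.5 µg/L.

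A sex difference that itself differed between doses was tested as an interaction. Between 0.5 µg/L and the controls no gene of 17880 was called by edgeR's quasi-likelihood test, with 956 genes at an unadjusted p under 0.05 and a lowest adjusted p of 0.419, whereas DESeq2 called 31 genes and the likelihood ratio test of edgeR 41. Between 0.5 and 50 µg/L, 2 genes of 17488 (0.0114%) were called, 1 in each direction (0.00572% each), with 3367 at an unadjusted p under 0.05, whereas DESeq2 called 888 and the likelihood ratio test 801. Leaving out male replicate 1 at 0.5 µg/L raised the calls to 1828, whereas 0 were made without male replicate 2 or 3 of that dose (2553 and 2577 at an unadjusted p under 0.05).

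The 2 genes were transcriptional regulator ATRX-like LOC111702385, named for a remodeller of chromatin, and irregular chiasm C-roughest protein-like LOC111708628, named for an adhesion protein of the Drosophila nervous system. With the 18 libraries scaled together, LOC111702385 had 70.3, 75.7 and 80.4 CPM in females at 0.5 µg/L, against 14.4, 24.9 and 25.2 CPM in males. At 50 µg/L it had 81.9, 74.02 and 81.1 CPM in females, against 5.70, 5.51 and 4.15 CPM in males. The sex difference was thus 1.75 on the log2 scale at 0.5 µg/L and 3.96 at 50 µg/L, and the interaction was -2.15 (standard error 0.30, adjusted p = 0.0251 by the quasi-likelihood test of edgeR). LOC111708628 had 7.42, 8.28 and 5.85 CPM in females at 0.5 µg/L, against 9.002, 9.86 and 7.55 CPM in males, and the groups overlapped. At 50 µg/L it had 4.75, 5.61 and 5.45 CPM in females, against 34.6, 34.8 and 31.3 CPM in males, and the interaction was 2.40 (standard error 0.34, adjusted p = 0.0251). For LOC111702385 all males at 50 µg/L were below those at 0.5 µg/L, whereas the females of the doses overlapped. For LOC111708628 all males at 50 µg/L were above those at 0.5 µg/L, and all females at 50 µg/L were below those at 0.5 µg/L. Both calls were lost without any 1 male library at 50 µg/L, without female replicate 1 or 3 at 50 µg/L, without female replicate 1 or 2 at 0.5 µg/L and without male replicate 2 or 3 at 0.5 µg/L (adjusted p from 0.0728 to 0.144), and that of LOC111702385 also without female replicate 3 at 0.5 µg/L (0.0502). Without male replicate 1 at 0.5 µg/L the adjusted p was 2.84e-07 for LOC111702385 and 5.76e-05 for LOC111708628.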

How the data were processed

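Single-end reads of whole-adult RNA were trimmed (Phred score above 30, reads under 36 bp removed) with Trimmomatic, aligned to the Eaff_2.0 assembly by STAR and assigned to genes with featureCounts by the authors, who deposited raw counts without normalization. Their tool versions and the treatment of strand and of multiply mapped reads are not given in the sources used here, so genes that share a name (cuticle protein, broad-complex, hsp70, myosin, mucin or zonadhesin genes) may share reads. The table holds 23728 genes in 18 columns, each matched to 1 library by its label. edgeR 4.0.16 under R 4.3.3 was used on the 6 libraries at 0.5 µg/L (filterByExpr, TMM, robust quasi-likelihood test, Benjamini-Hochberg adjustment), and 7327 genes did not pass the filter. A gene was called at an adjusted p no higher than 0.05 and a difference of 2-fold or more by that test alone, whereas the study asked for both edgeR and DESeq2. Of the 10328 genes called, DESeq2 called 10132 in the same direction. Standard errors are the log2 fold change divided by the square root of the F statistic. Interactions used 12 libraries each. Ratios of genes with at most 10 counts in a sex come from summed counts with exact intervals, which cover counting error only. DESeq2 1.42.0, the likelihood ratio test, other scalings, no filter, each library left out, a replicate block and a fit of all 18 libraries were alternatives. Steps were tested on simulated data in which most genes did not differ and no male library stood apart, unlike these data.

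Gene lists are patterns on the descriptions in the study's supplementary tables, and no member of the lists of ribosomal proteins and chemical sense was described. The comparison, the lists and the rule for named genes were chosen with earlier results of these data known. The rule took called genes without overlap of the 6 libraries: in each direction the 5 described genes with the largest log2 fold change at a mean of at least 10 CPM, the 5 with the most CPM and up to 2 per list, then the study's genes of reproduction and of moulting and metamorphosis whatever their call, and the genes called for an interaction. It gave 87 genes, of which the text gives most, and further list members were chosen after their values were seen.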

Additional observations from a re-analysis of the deposited data

Results flagged for a closer look

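The sex difference of 2 genes differed between 0.5 and 50 µg/L in a test of the difference itself, edgeR's quasi-likelihood test of the interaction with Benjamini-Hochberg adjustment. For ATRX-like LOC111702385 the interaction was -2.15 (adjusted p = 0.0251), and over the fits without 1 library the adjusted p ran from 2.84e-07 to 0.144. For irregular chiasm C-roughest protein-like LOC111708628 it was 2.40 (adjusted p = 0.0251), with a range of 5.76e-05 to 0.144 over the same fits. Both calls were lost with the replicate block (adjusted p = 0.091 for each) and with all 18 libraries in the fit (0.266 and 0.15). The libraries at 50 µg/L and 1 of the 6 at 0.5 µg/L were read on the Mid Output flow cell, and its part in these differences was not tested.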

How the results depend on the processing

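The count of called genes stayed between 9322 and 12323 over all alternatives, beside 10328, and that of genes higher in males between 6344 and 7451. The number higher in females was 2053 with upper quartile factors and 5515 against male replicate 1 alone, beside 3580, and ran from 3236 to 4192 with 1 library left out. Without female replicate 3, the library on the other flow cell, 3604 genes were higher in females and 6758 higher in males. List members called ran from 130 to 155, beside 145, and from 130 to 148 with 1 library left out. Under no alternative did a gene named by the rule change direction. Most of these genes were chosen as called and without overlap of the 6 libraries, so a change of direction was hardly possible. With 1 library left out, between 77 and 83 of the 87 kept their side of the threshold, and 13 lost a call in some such fit, 9 of them higher in females.

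The interaction with the controls gave 31 calls with DESeq2, 41 with the likelihood ratio test and 0 under every other alternative, including each library left out (unadjusted p under 0.05 in 648 to 3150 genes). The interaction with 50 µg/L gave 2 calls as reported, 27 with the size factors of DESeq2, 28 with upper quartile factors, 41 without the filter, 888 with DESeq2, 801 with the likelihood ratio test, 0 with the replicate block, 0 with all 18 libraries, 10 without male replicates 2 and 3, and from 0 to 1828 with 1 library left out, the highest without male replicate 1 at 0.5 µg/L. The cause was not tested. Replicate numbers did not pair the libraries, as the deviations of females and males of the same number correlated at 0.067, 0.023 and 0.014. With the replicate block 10200 genes were called (3563 higher in females and 6637 higher in males), 137 list members were called, and the counts for the interactions were 0 and 0. The counts of male replicate 1, the smallest of the 6 libraries at 6945417, limit what can be read from genes near 0 in it.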
